A study of Mus musculus with 42 samples.

Results

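Low and high flow were compared in the carotid intima of mice given PBS liposomes, using 4 of the 42 samples of the series: 2 low-flow and 2 high-flow libraries chosen by their labels. The mice were male C57BL/6J, 6 to 7 weeks of age, and no engineered allele is given for either group. In each mouse the left carotid artery was partially ligated, which lowers flow in that vessel and makes it oscillate, while the unligated contralateral artery kept high flow. PBS liposomes, the carrier without drug that served as the control for macrophage-depleting clodronate liposomes, were injected into the tail vein at the time of ligation, and the intima was collected 48 hr later. RNA was flushed from the inner layer of the vessel with Trizol, and each library was a pool of 3 to 5 flushes, so n counts pools and p-values measure the spread between pools. The low-flow and contralateral arteries lie in the same animals, but the labels do not say which low-flow pool shares mice with which high-flow pool. The other pairs of groups served as references, low and high flow after the non-specific antibody IgG (2 libraries each, also 48 hr) and low and high flow in untreated mice (3 pools each, 48 hr).

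Endothelial cells read the shear of flowing blood. Steady laminar shear keeps the vessel wall quiescent through the transcription factors KLF2 and KLF4, which raise nitric oxide synthesis and thrombomodulin. Low and oscillating shear withdraws that program, activates YAP and TAZ with TEAD factors and NF-kB, and lets endothelial cells bind and recruit monocytes and neutrophils, the cells that begin an atherosclerotic lesion. Partial ligation of the carotid is a standard model of that transition.

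Values were the authors' expected counts per gene, an estimate of the reads that came from each gene, and levels are given as FPKM, in which a count is divided by the effective transcript length and by the library total. The 4 libraries held between 13850978 and 17814922 counts. Per the file headers the low-flow libraries were sequenced in a different run from the high-flow libraries, so flow and run cannot be told apart here or under IgG, whereas the untreated low-flow and high-flow pools shared a run. Short transcripts were higher at low flow. The median log2 fold-change was 2.20 over the 279 genes with an effective length of up to 500 bp, of which 213 rose and 0 fell, and -0.31 over the 1892 genes above 5000 bp, of which 111 rose and 367 fell. The same bins gave 1.90 and -0.71 under IgG and 0.41 and -0.32 in untreated mice. The part of the run in this trend was not tested. Each comparison was also fitted with an offset that removes the trend of each library with length, and a named call lost with that offset is given as such. Of 13401 genes tested by edgeR's quasi-likelihood test, 19.6% rose and 15.5% fell at a Benjamini-Hochberg adjusted p under 0.05, and with the length offset 13.7% rose and 13.9% fell. Without regard to any test, both low-flow libraries lay above both high-flow libraries for 36.5% of genes and below them for 38.9%. Counts for a list with 1 library left out are to be read beside the fewer calls over all genes given next. The count of calls depended on single libraries, since 4692 genes passed with all 4, 2911 without low-flow replicate 1, 2172 without low-flow replicate 2 and 1482 without high-flow replicate 1.

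**Figure D1:**
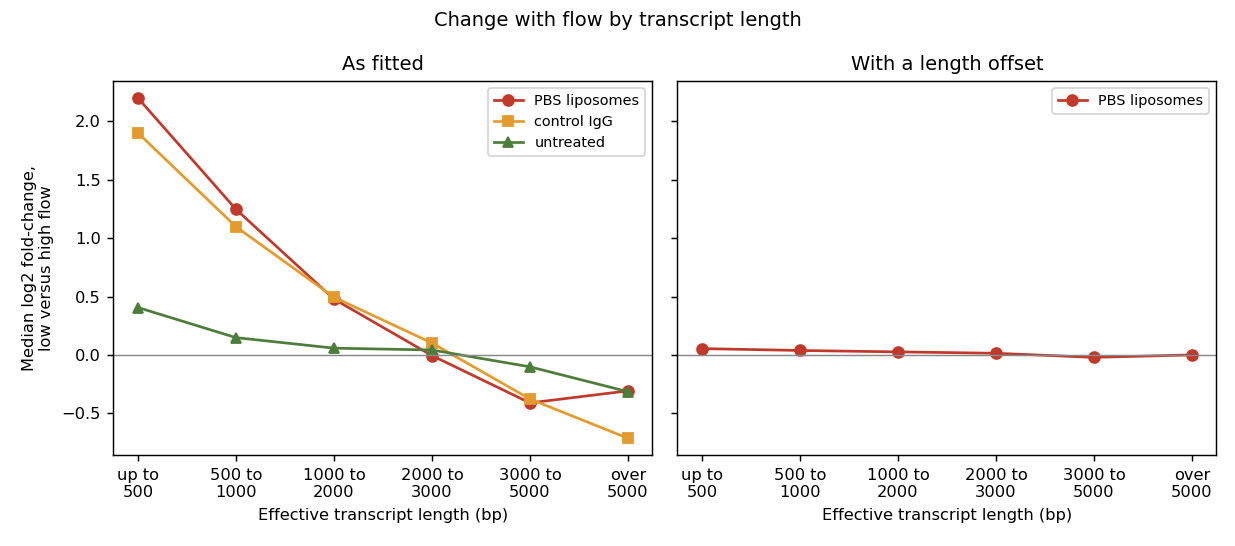
Median log2 fold-change of low versus high flow (vertical axis) in 6 bins of effective transcript length in bp (horizontal axis), as fitted for mice given PBS liposomes, given control IgG or left untreated (left), and with the length offset for PBS liposomes (right). The line for PBS liposomes falls from 2.20 in the shortest bin to -0.41 at 3000 to 5000 bp, the untreated line starts at 0.41, and with the offset the medians lie between -0.02 and 0.05.

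Sequence just upstream of 5 genes is shown because they stand for the factors named above: MEF2 proteins act upstream of Klf2, TEAD proteins bind DNA for YAP at genes such as Ankrd1, and NF-kB acts at the neutrophil chemokines Cxcl1, Cxcl2 and Cxcl3. The windows are the 140 bases before the start site in RefSeq on GRCm38.p6, a later build than the mm9 of the counts, at chr8:72318922-72319061, plus strand (Klf2), chr19:36119845-36119984, minus strand (Ankrd1), chr5:90891105-90891244, plus strand (Cxcl1), chr5:90903759-90903898, plus strand (Cxcl2) and chr5:90785961-90786100, plus strand (Cxcl3), read 5′ to 3′ along the gene. Capitals mark the letters searched for on both strands: CTANNNNTAG for MEF2, GGAATG for TEAD and GGGANTTTCC for NF-kB.
Klf2: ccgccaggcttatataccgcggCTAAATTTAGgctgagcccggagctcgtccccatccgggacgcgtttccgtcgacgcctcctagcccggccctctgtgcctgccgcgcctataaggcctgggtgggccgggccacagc
Ankrd1: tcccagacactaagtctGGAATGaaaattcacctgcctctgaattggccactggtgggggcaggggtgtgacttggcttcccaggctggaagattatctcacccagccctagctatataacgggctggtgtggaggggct
Cxcl1: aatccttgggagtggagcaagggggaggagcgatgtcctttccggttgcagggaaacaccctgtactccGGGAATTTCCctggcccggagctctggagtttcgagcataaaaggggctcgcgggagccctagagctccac
Cxcl2: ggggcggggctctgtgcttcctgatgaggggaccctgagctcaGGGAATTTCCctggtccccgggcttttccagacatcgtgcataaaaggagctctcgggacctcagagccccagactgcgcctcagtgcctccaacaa
Cxcl3: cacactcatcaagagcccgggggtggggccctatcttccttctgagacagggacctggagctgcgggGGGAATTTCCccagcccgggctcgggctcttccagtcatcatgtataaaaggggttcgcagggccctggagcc

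The MEF2 letters began 118 bases before the start of Klf2, the TEAD letters 123 bases before that of Ankrd1, and the NF-kB letters 71, 97 and 73 bases before those of Cxcl1, Cxcl2 and Cxcl3. Over the 32851 windows of 250 bases before to 50 after a start, 3.69% held the MEF2 letters, 14.7% the TEAD letters and 0.411% the NF-kB letters. Among members with a window, the MEF2 letters were in 1 of 12 laminar flow genes, the TEAD letters in 1 of 10 disturbed flow genes (Edn1), and the NF-kB letters in 3 of 18 chemokines, the 3 shown. The percentages count windows, whereas a member counts once with a match in any of its windows, so they are not like for like. Ankrd1, which is in none of these lists, also held the TEAD letters 210 bases before its start, outside the stretch shown. A match describes the letters and does not show a bound site. Klf2 fell at low flow, Ankrd1, Cxcl2 and Cxcl3 rose, and Cxcl1 was not called, with the values given at each gene, and Cxcl2 was chosen after its values were seen.

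The genes that laminar flow sustains were lower at low flow. Of 16 members tested, 2 rose and 12 fell, and the median log2 fold-change was -2.14, where the share that fell compares with 15.5% of all genes and the median with 0.06 over all genes. Klf2 was at 24.4 and 24.6 FPKM at low flow and 488 and 357 FPKM at high flow (log2 fold-change -4.000 ± 0.56, adjusted p = 0.00077). Klf4, its relative in the same program, was at 2.48 and 2.19 FPKM at low flow and 27.7 and 19.6 FPKM at high flow (log2 fold-change -3.23 ± 0.59, adjusted p = 0.0026). For both factors the high-flow libraries lay far above the low-flow libraries, which were close together. Nos3, the endothelial nitric oxide synthase, was at 86.3 and 107 FPKM at low flow and 504 and 336 FPKM at high flow (log2 fold-change -2.02 ± 0.27, adjusted p = 0.00056). Tek, the receptor of the angiopoietins that stabilises the endothelium, was at 40.9 and 59.95 FPKM at low flow and 358 and 268 FPKM at high flow (log2 fold-change -2.53 ± 0.27, adjusted p = 0.00017). Thbd, thrombomodulin, the cofactor that turns thrombin to an anticoagulant role, was at 53.7 and 20.7 FPKM at low flow and 216 and 116 FPKM at high flow (log2 fold-change -2.05 ± 0.62, adjusted p = 0.025), with low-flow replicate 2 the lowest of the 4 libraries.

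Aqp1, a water channel, was at 25.8 and 25.9 FPKM at low flow and 143 and 119.5 FPKM at high flow (log2 fold-change -2.24 ± 0.40, adjusted p = 0.0023). Cyp1b1, a cytochrome P450 that shear induces, was at 14.2 and 7.67 FPKM at low flow and 98.1 and 59.3 FPKM at high flow (log2 fold-change -2.74 ± 0.46, adjusted p = 0.0017). Pi16, peptidase inhibitor 16, was at 11.7 and 9.22 FPKM at low flow and 84.4 and 82.2 FPKM at high flow (log2 fold-change -2.88 ± 0.44, adjusted p = 0.0011). These genes showed no overlap between the groups. The gap junction genes moved apart. Gja5, connexin 40, was at 143 and 232 FPKM at low flow and 589 and 572 FPKM at high flow (log2 fold-change -1.52 ± 0.31, adjusted p = 0.0041). Gja4, connexin 37, was at 550.4 and 844 FPKM at low flow and 209 and 312 FPKM at high flow (log2 fold-change 1.53 ± 0.35, adjusted p = 0.0067). Ass1, which recycles citrulline to arginine, was at 4.38 and 3.69 FPKM at low flow and 27.03 and 20.3 FPKM at high flow (log2 fold-change -2.44 ± 0.38, adjusted p = 0.0012), but a further low-flow pool of this treatment, read at 100 bp, was at 101 FPKM, and the log2 fold-change with it was 0.80. Timp3, an inhibitor of metalloproteases, fell by 2.42 on the log2 scale (adjusted p = 0.0029). The NRF2 targets in the list also parted. Nqo1, a quinone reductase, was at 6.41 and 8.41 FPKM at low flow and 22.97 and 30.4 FPKM at high flow (log2 fold-change -1.74 ± 0.38, adjusted p = 0.0055). Hmox1, heme oxygenase 1, was at 32.5 and 37.97 FPKM at low flow and 5.15 and 5.46 FPKM at high flow (log2 fold-change 2.84 ± 0.42, adjusted p = 0.001). The members not called were Slco2a1 (63.2 and 57.2 FPKM at low flow and 111 and 116 FPKM at high flow, adjusted p = 0.069) and Ppap2b (188 and 88.2 FPKM at low flow and 204 and 131 FPKM at high flow, adjusted p = 0.76). Thbd and Gja4 lost their calls without low-flow replicate 2 or high-flow replicate 1 (adjusted p 0.061 to 0.18).

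**Figure D2:**
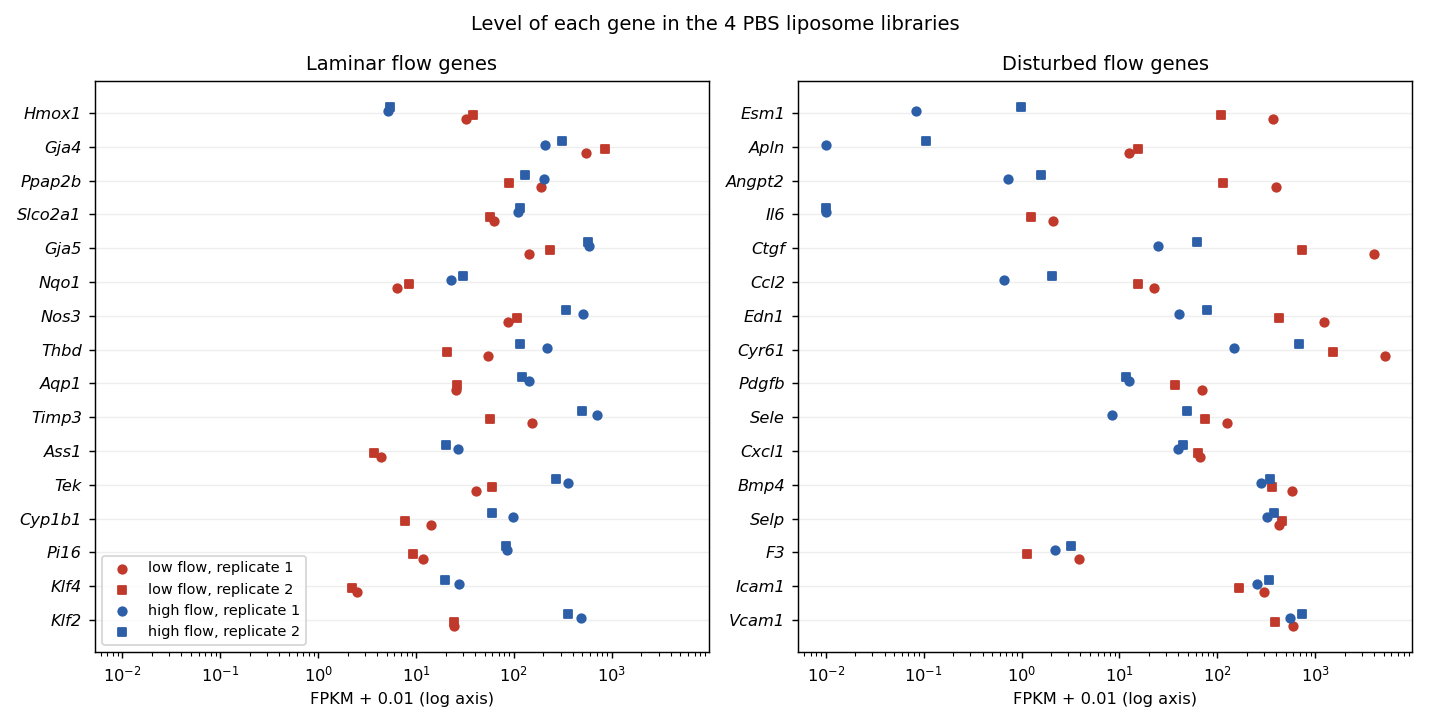
FPKM + 0.01 (horizontal log axis) of each laminar flow gene (left) and disturbed flow gene (right) in the 2 low-flow (red) and 2 high-flow (blue) PBS liposome libraries, with circles for replicate 1 and squares for replicate 2. Blue points sit to the right for Klf2, Klf4 and Nos3, red points sit far to the right for Angpt2 and Esm1, and the points of Vcam1 and Icam1 are mixed.

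Genes linked to disturbed flow rose in part. Of 16 members tested, 9 rose and 0 fell, and the median log2 fold-change was 2.68, against 19.6% of all genes that rose. The genes that rose encode secreted factors, and the leukocyte adhesion molecules of the list were not among them. Angpt2, which blocks signalling through Tek and is stored in endothelial granules, was at 395 and 113 FPKM at low flow and 0.712 and 1.58 FPKM at high flow (log2 fold-change 7.90 ± 1.14, adjusted p = 0.00087). Edn1, the vasoconstrictor endothelin 1, was at 1224 and 432 FPKM at low flow and 40.9 and 78.2 FPKM at high flow (log2 fold-change 3.92 ± 0.55, adjusted p = 0.00074). Ctgf and Cyr61 are matricellular targets of YAP and TEAD. Ctgf was at 3993 and 734 FPKM at low flow and 24.7 and 62.4 FPKM at high flow (log2 fold-change 5.88 ± 0.93, adjusted p = 0.0013). Cyr61 was at 5113 and 1513 FPKM at low flow and 149.7 and 676 FPKM at high flow (log2 fold-change 3.13 ± 0.81, adjusted p = 0.013). In each of these genes low-flow replicate 1 was the highest library and low-flow replicate 2 the next, both above the high-flow libraries. Esm1, a secreted proteoglycan of tip cells, was at 372 and 109 FPKM at low flow and 0.0737 and 0.978 FPKM at high flow (log2 fold-change 8.94 ± 2.98, adjusted p = 0.04). Apln, the peptide apelin, was at 12.5 and 15.7 FPKM at low flow and 0 and 0.0945 FPKM at high flow (log2 fold-change 8.24 ± 2.42, adjusted p = 0.024).

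Pdgfb, the mitogen of mural cells, was at 69.1 and 36.8 FPKM at low flow and 12.6 and 11.8 FPKM at high flow (log2 fold-change 2.23 ± 0.43, adjusted p = 0.0034). Ccl2, the chemokine that draws monocytes, was at 22.7 and 15.4 FPKM at low flow and 0.654 and 2.04 FPKM at high flow (log2 fold-change 3.93 ± 0.65, adjusted p = 0.0016). Il6 was at 2.08 and 1.25 FPKM at low flow and 0 and 0 FPKM at high flow (at least 14.5-fold higher, adjusted p = 0.03), where the bound rests on a floor of 3 counts over the high-flow group. Vcam1, which holds monocytes to the endothelium, was at 589.8 and 387 FPKM at low flow and 548 and 729 FPKM at high flow (adjusted p = 0.53). Icam1, the ligand of leukocyte integrins, was at 298 and 167 FPKM at low flow and 254 and 339 FPKM at high flow (adjusted p = 0.59). Both were abundant in all 4 libraries and their groups overlapped. E-selectin, Sele, was at 125 and 75.2 FPKM at low flow and 8.40 and 49.4 FPKM at high flow, and its difference did not pass (log2 fold-change 1.91, adjusted p = 0.11), with high-flow replicate 2 between the low-flow libraries and high-flow replicate 1. Selp, P-selectin, was at 432 and 463 FPKM at low flow and 319 and 377 FPKM at high flow (adjusted p = 0.096, or 0.041 with the length offset). Fewer members passed with a library left out, since 5 rose and 0 fell without low-flow replicate 1 and 5 rose and 0 fell without high-flow replicate 1. Cyr61 lost its call without low-flow replicate 1 or high-flow replicate 1 (adjusted p 0.097 to 0.099), and Esm1, Apln and Il6 without any 1 of the 4 libraries (0.05 to 0.21). Esm1 (adjusted p = 0.054) and Il6 (adjusted p = 0.07) lost their calls with the length offset.

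The largest changes among well-expressed genes without overlap are given next. The raised genes included Cxcl3, Il1r2, Esm1, Prnd, Apln, Il1b, Angpt2, Gm9733, Ankrd1 and Cxcr2. Il1r2, the decoy receptor of interleukin-1 found on neutrophils, was at 18.9 and 81.1 FPKM at low flow and 0 and 0.178 FPKM at high flow (count ratio 568, 95% interval 194 to 2758, adjusted p = 0.00035), where the ratio is given because the high-flow group held 3 counts and its interval covers counting error only. Prnd, a relative of the prion protein gene found in angiogenic endothelium, was at 5.41 and 8.01 FPKM at low flow and 0 and 0.0339 FPKM at high flow (count ratio 395, 95% interval 70.6 to 15633, adjusted p = 0.0011). Ankrd1, a target of YAP and TEAD, was at 59.5 and 24.4 FPKM at low flow and 0.0891 and 0.526 FPKM at high flow (log2 fold-change 7.18 ± 2.08, adjusted p = 0.021). Gm9733 was at 5.13 and 21.2 FPKM at low flow and 0 and 0.150 FPKM at high flow (count ratio 177, 95% interval 31.5 to 7036, adjusted p = 0.0028). The high-flow libraries were at or near 0 for each of these genes. Ankrd1 lost its call without low-flow replicate 1, high-flow replicate 1 or high-flow replicate 2 (adjusted p 0.061 to 0.15).

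The 12 genes lowered most had high-flow levels above 4 FPKM in both libraries. Klk10, a kallikrein-related protease, was at 15.9 and 5.52 FPKM at low flow and 698 and 546 FPKM at high flow (log2 fold-change -5.75 ± 0.85, adjusted p = 0.001) and was by far the most abundant of them at high flow. Fndc1, which carries fibronectin type III domains, was at 3.32 and 1.71 FPKM at low flow and 107 and 50.7 FPKM at high flow (log2 fold-change -4.86 ± 0.76, adjusted p = 0.0012). Adra2c, the alpha-2C adrenergic receptor, was at 0.156 and 0.110 FPKM at low flow and 13.4 and 6.09 FPKM at high flow (log2 fold-change -6.07 ± 1.01, adjusted p = 0.0016). Vipr1, a receptor of vasoactive intestinal peptide, was at 0.162 and 0.0590 FPKM at low flow and 10.5 and 4.49 FPKM at high flow (log2 fold-change -5.97). Clic5, a chloride intracellular channel protein, was at 1.37 and 0.970 FPKM at low flow and 49.5 and 24.3 FPKM at high flow (log2 fold-change -4.87 ± 0.67, adjusted p = 0.00068). Prrt4, Nxnl2, Srms, Rasd2 and Plekha6 had log2 fold-changes of -5.88, -5.80, -5.59, -4.82 and -4.78, and their low-flow levels reached at most 0.668 FPKM. Serpina1b, which encodes an alpha-1-antitrypsin, was at 0.0533 and 0.138 FPKM at low flow and 32.5 and 25.99 FPKM at high flow. Its copy Serpina1d was at 0.789 and 0.265 FPKM at low flow and 63.3 and 48.3 FPKM at high flow. These genes are near-identical, so the split between them is uncertain, though both fell (log2 fold-changes -8.15 and -6.63). None of these 12 calls was lost with any 1 library left out or with the length offset. In mm9 these and other flow genes lie at chr8:74842932-74845555 (Klf2), chr7:51036424-51040780 (Klk10), chr8:18690263-18741562 (Angpt2) and chr2:129190306-129196875 (Il1b), and the counts sum over their annotated transcripts.

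Leukocyte genes were higher at low flow. Of the macrophage markers, 9 rose and 0 fell of 14 tested (median log2 fold-change 2.94), and their summed level was 1382 and 2257 FPKM at low flow and 112 and 209.8 FPKM at high flow. In such bulk samples, more cells of a type and more RNA per cell cannot be told apart. Ptprc, the pan-leukocyte antigen CD45, was at 8.73 and 23.6 FPKM at low flow and 1.40 and 2.81 FPKM at high flow (log2 fold-change 3.05 ± 0.55, adjusted p = 0.0024). Cd68, a lysosomal glycoprotein of macrophages, was at 24.3 and 41.9 FPKM at low flow and 2.84 and 3.29 FPKM at high flow (log2 fold-change 3.54 ± 0.45, adjusted p = 0.00048). Lyz2, lysozyme of myeloid cells, was at 1179 and 1972 FPKM at low flow and 73.6 and 157 FPKM at high flow (log2 fold-change 3.89 ± 0.65, adjusted p = 0.0017) and was the most abundant marker of the list. Cd14, the co-receptor for endotoxin, was at 35.98 and 108 FPKM at low flow and 6.78 and 7.66 FPKM at high flow (log2 fold-change 3.43 ± 0.51, adjusted p = 0.001). Csf1r, the receptor that macrophages need for survival, was at 15.3 and 29.5 FPKM at low flow and 2.11 and 5.31 FPKM at high flow (log2 fold-change 2.71 ± 0.57, adjusted p = 0.0048). Ccr2, the receptor of Ccl2 on monocytes, was at 14.7 and 24.3 FPKM at low flow and 0.608 and 1.05 FPKM at high flow (log2 fold-change 4.66 ± 0.98, adjusted p = 0.0048). Every called macrophage marker except C1qb was higher in low-flow replicate 2 than in low-flow replicate 1. Members that edgeR did not call included Mrc1 at 1.29 and 0.694 FPKM at low flow and 0.419 and 0.522 FPKM at high flow (adjusted p = 0.46). Emr1, the F4/80 antigen, was at 3.27 and 3.69 FPKM at low flow and 0.396 and 0.984 FPKM at high flow (adjusted p = 0.064). All 14 members lay higher in both low-flow libraries, beside 36.5% of all genes. DESeq2 called 12 of the 14 members raised, beside 2971 of all 13401 genes. Without high-flow replicate 1, 4 of the 14 macrophage markers rose. Csf1r and Ccr2 lost their calls without high-flow replicate 1 (adjusted p 0.057 to 0.059).

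Of the neutrophil markers, 7 rose and 0 fell of 11 tested (median log2 fold-change 4.12), and their summed level was 196 and 528 FPKM at low flow and 17.2 and 6.96 FPKM at high flow. S100a8 and S100a9, the calprotectin subunits, are abundant in neutrophils. S100a8 was at 58.96 and 159 FPKM at low flow and 0.871 and 1.14 FPKM at high flow (log2 fold-change 6.82 ± 1.21, adjusted p = 0.0022). S100a9 was at 76.7 and 239 FPKM at low flow and 3.14 and 1.65 FPKM at high flow (log2 fold-change 6.13 ± 1.202, adjusted p = 0.0035). Cxcr2, the receptor of the chemokines Cxcl1, Cxcl2 and Cxcl3 on neutrophils, was at 6.25 and 23.7 FPKM at low flow and 0.0498 and 0.171 FPKM at high flow (log2 fold-change 7.15 ± 1.28, adjusted p = 0.0023). Csf3r, the receptor of granulocyte colony-stimulating factor, was at 6.31 and 19.1 FPKM at low flow and 0.716 and 0.902 FPKM at high flow (log2 fold-change 4.08 ± 0.73, adjusted p = 0.0023). Retnlg, a resistin-like protein of granulocytes, was at 17.7 and 37.4 FPKM at low flow and 0.312 and 0.766 FPKM at high flow (log2 fold-change 5.74 ± 0.99, adjusted p = 0.002). Low-flow replicate 2 was the highest library for each of them, and high-flow libraries were near 0. Camp and Ngp, further granule genes of the list, were not called, with Camp at 0.130 and 0.123 FPKM at low flow and 1.11 and 0 FPKM at high flow and Ngp at 0.350 and 1.05 FPKM at low flow and 8.59 and 0 FPKM at high flow, and Mpo was listed at 0 in all 4 libraries. Lcn2, which binds bacterial siderophores, was at 19.3 and 21.7 FPKM at low flow and 1.43 and 1.10 FPKM at high flow (log2 fold-change 4.12 ± 1.06, adjusted p = 0.012). Mmp8, neutrophil collagenase, was at 5.30 and 11.5 FPKM at low flow and 0.156 and 0.277 FPKM at high flow (log2 fold-change 5.37 ± 1.81, adjusted p = 0.039). Lcn2 lost its call without high-flow replicate 1 or high-flow replicate 2 (adjusted p 0.066 to 0.085), and Mmp8 without any 1 of the 4 libraries (0.062 to 0.2). Lcn2 (adjusted p = 0.078) and Mmp8 (adjusted p = 0.052) lost their calls with the length offset.

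Chemokines rose beside the leukocyte markers. Of 24 members tested, 14 rose and 0 fell, against 19.6% of all genes that rose, and the median log2 fold-change was 3.36. Macrophage and neutrophil markers rose in the same comparison as the chemokine, interleukin-1 and MHC class II genes, and their part in those results was not tested. Summed chemokines were at 1308 and 899 FPKM at low flow and 174 and 288 FPKM at high flow. Under the length offset 9 chemokines rose and 0 fell, against 13.7% of all genes that rose. Cxcl12, which draws leukocytes and progenitors, was the most abundant at 778 and 408 FPKM at low flow and 50.97 and 76.5 FPKM at high flow (log2 fold-change 3.33 ± 0.71, adjusted p = 0.0053). Ccl6 was at 186 and 186 FPKM at low flow and 18.05 and 17.1 FPKM at high flow (log2 fold-change 3.51 ± 0.69, adjusted p = 0.0035), with no overlap. Of the neutrophil chemokines, Cxcl3 was at 4.51 and 8.01 FPKM at low flow and 0 and 0 FPKM at high flow (at least 51.1-fold higher, adjusted p = 0.007). Cxcl5 was at 3.46 and 2.08 FPKM at low flow and 0 and 0.235 FPKM at high flow (log2 fold-change 4.61 ± 1.22, adjusted p = 0.016). Cxcl2 was at 10.3 and 9.74 FPKM at low flow and 1.999 and 2.57 FPKM at high flow (log2 fold-change 2.24 ± 0.58, adjusted p = 0.012). Cxcl1 was at 66.5 and 63.7 FPKM at low flow and 39.3 and 44.8 FPKM at high flow (log2 fold-change 0.74, adjusted p = 0.25). Cxcl1 was thus the most abundant of these ligands at high flow, and it alone of them was not called. Cx3cl1, the membrane-bound chemokine of endothelium, was at 34.00 and 37.4 FPKM at low flow and 22.3 and 52.9 FPKM at high flow (adjusted p = 0.94), and its groups overlapped. Cxcl16 was at 80.2 and 85.6 FPKM at low flow and 29.8 and 59.7 FPKM at high flow (log2 fold-change 1.004 ± 0.29, adjusted p = 0.02). Pf4, a platelet chemokine, was at 44.9 and 19.6 FPKM at low flow and 3.41 and 7.51 FPKM at high flow (log2 fold-change 2.67 ± 0.66, adjusted p = 0.01).

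Among chemokine receptors 8 rose and 2 fell of 12 tested (median log2 fold-change 4.02), against 19.6% and 15.5% of all genes. Ccr1, found on monocytes and neutrophils, was at 11.3 and 30.4 FPKM at low flow and 0.672 and 0.159 FPKM at high flow (log2 fold-change 5.74 ± 0.80, adjusted p = 0.00074). The members that fell were Cxcr7 and Ccrl2. Cxcr7, the scavenger of Cxcl12 also called Ackr3, was at 48.6 and 33.5 FPKM at low flow and 357 and 382 FPKM at high flow (log2 fold-change -3.06 ± 0.52, adjusted p = 0.0018). Ccrl2, which presents chemerin, was at 11.4 and 9.76 FPKM at low flow and 40.5 and 36.3 FPKM at high flow (log2 fold-change -1.75 ± 0.49, adjusted p = 0.018). Ligand and scavenger of Cxcl12 thus moved in opposite directions, with no overlap of the groups for either gene. In the chemokines, 8 rose and 0 fell without low-flow replicate 1 and 3 rose and 0 fell without high-flow replicate 1. In the chemokine receptors, 3 rose and 1 fell without low-flow replicate 2, 4 rose and 1 fell without high-flow replicate 1 and 5 rose and 2 fell without high-flow replicate 2. Cxcl12, Cxcl3 and Cxcl2 lost their calls without high-flow replicate 1 (adjusted p 0.053 to 0.1), Cxcl5 and Pf4 without low-flow replicate 1 or high-flow replicate 1 (0.059 to 0.1), and Cxcl16 and Ccrl2 without low-flow replicate 1, low-flow replicate 2 or high-flow replicate 1 (0.062 to 0.17). Cxcl2 (adjusted p = 0.13) and Pf4 (adjusted p = 0.34) lost their calls with the length offset.

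In the interleukin-1 family, which signals injury to endothelium and leukocytes, 7 rose and 0 fell of 13 tested (median log2 fold-change 4.33). Over all genes 19.6% rose. Il1b was at 58.97 and 288 FPKM at low flow and 0.244 and 1.08 FPKM at high flow (log2 fold-change 8.12 ± 1.07, adjusted p = 0.00074). Its antagonists rose too, Il1r2 as given above and Il1rn, the receptor antagonist, at 6.66 and 23.3 FPKM at low flow and 0 and 0.470 FPKM at high flow (log2 fold-change 6.08 ± 1.19, adjusted p = 0.0035). Il1f9, interleukin-36 gamma, was at 3.24 and 7.51 FPKM at low flow and 0 and 0.331 FPKM at high flow (log2 fold-change 5.09 ± 1.16, adjusted p = 0.0081). The signalling receptor chain Il1r1 was at 7.93 and 5.55 FPKM at low flow and 7.98 and 4.27 FPKM at high flow (adjusted p = 0.72). Il33, an alarmin, was at 7.93 and 2.51 FPKM at low flow and 3.08 and 1.69 FPKM at high flow (adjusted p = 0.17). The ligand and its antagonists were highest in low-flow replicate 2, as the neutrophil markers were. In the interleukin-1 family, 3 rose and 0 fell without low-flow replicate 2 and 3 rose and 0 fell without high-flow replicate 1. Il1f9 lost its call without low-flow replicate 2 or high-flow replicate 1 (adjusted p 0.052 to 0.054).

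Leukocyte adhesion molecules included called genes in both directions. Of 15 members tested, 4 rose and 4 fell, and the median log2 fold-change was 0.09. Over all genes 19.6% rose and 15.5% fell. Selplg, the ligand of P-selectin on leukocytes, was at 10.9 and 29.98 FPKM at low flow and 0.499 and 2.08 FPKM at high flow (log2 fold-change 4.10 ± 0.68, adjusted p = 0.0016). Itgb2, the beta-2 integrin chain of leukocytes, was at 21.4 and 37.2 FPKM at low flow and 3.35 and 6.53 FPKM at high flow (log2 fold-change 2.68 ± 0.40, adjusted p = 0.001). Pecam1, which sits at endothelial junctions, was at 438 and 386 FPKM at low flow and 2316 and 1638 FPKM at high flow (log2 fold-change -2.15 ± 0.34, adjusted p = 0.0013). Icam2, also constitutive in endothelium, was at 294 and 495 FPKM at low flow and 835 and 954 FPKM at high flow (log2 fold-change -1.07 ± 0.32, adjusted p = 0.022). The groups did not overlap for any of these 4 genes. Itgb1, the beta-1 integrin chain of most cells, was at 521 and 467 FPKM at low flow and 992 and 932 FPKM at high flow (log2 fold-change -0.85 ± 0.27, adjusted p = 0.032), a direction that turned under scaling to endothelial counts (log2 fold-change 0.13). In the adhesion list, 4 rose and 2 fell without low-flow replicate 1, 2 rose and 3 fell without low-flow replicate 2, 2 rose and 2 fell without high-flow replicate 1 and 4 rose and 2 fell without high-flow replicate 2. Icam2 lost its call without low-flow replicate 1, high-flow replicate 1 or high-flow replicate 2 (adjusted p 0.078 to 0.16), and Itgb1 without any 1 of the 4 libraries (0.072 to 0.17). Itgb1 (adjusted p = 0.19) lost its call with the length offset.

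Genes of MHC class II presentation, which mark dendritic cells, macrophages and B cells, followed. Of 12 members tested, 7 rose and 0 fell, against 19.6% of all genes that rose, and the median log2 fold-change was 2.09. H2-Ab1 was at 97.2 and 214 FPKM at low flow and 19.2 and 69.4 FPKM at high flow (log2 fold-change 1.93 ± 0.59, adjusted p = 0.027). H2-Aa was at 69.6 and 142 FPKM at low flow and 14.1 and 52.5 FPKM at high flow (log2 fold-change 1.78 ± 0.58, adjusted p = 0.035). H2-Eb1 was at 27.4 and 69.4 FPKM at low flow and 4.64 and 17.4 FPKM at high flow (log2 fold-change 2.25 ± 0.65, adjusted p = 0.02). Cd74, the invariant chain, was at 126 and 292 FPKM at low flow and 28.7 and 124 FPKM at high flow (adjusted p = 0.061, or 0.0086 with the replicate block), and DESeq2 called it. In these 4 genes high-flow replicate 2 was well above high-flow replicate 1, which was the lowest library. Ctss, cathepsin S, which degrades the invariant chain, was at 84.4 and 148 FPKM at low flow and 6.38 and 11.4 FPKM at high flow (log2 fold-change 3.81 ± 0.66, adjusted p = 0.0019). Ciita, the master activator of the class, was at 0.367 and 0.986 FPKM at low flow and 0.331 and 0.765 FPKM at high flow (adjusted p = 0.74). With the length offset 3 of 12 rose, against 13.7% of all genes. In the MHC class II list, 1 rose and 0 fell without low-flow replicate 2 and 1 rose and 0 fell without high-flow replicate 1. H2-Ab1, H2-Aa and H2-Eb1 lost their calls without low-flow replicate 2 or high-flow replicate 1 (adjusted p 0.14 to 0.24). H2-Ab1 (adjusted p = 0.12) and H2-Aa (adjusted p = 0.23) lost their calls with the length offset.

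The labelled tissue was checked against its markers. Of the endothelial identity genes, 3 rose and 4 fell of 16 tested (median log2 fold-change 0.03), against 19.6% and 15.5% of all genes, and their summed level was 2838 and 2940.0 FPKM at low flow and 5278 and 4430.0 FPKM at high flow. Esam, a junction molecule, was at 583 and 664 FPKM at low flow and 592 and 683 FPKM at high flow (adjusted p = 0.8). Sox18, a factor of endothelial fate, was at 289 and 370.4 FPKM at low flow and 349.9 and 352 FPKM at high flow (adjusted p = 0.96). Erg, which maintains endothelial genes, was at 8.09 and 9.08 FPKM at low flow and 9.49 and 8.20 FPKM at high flow (adjusted p = 0.9). These genes were present at near-equal levels in all 4 libraries. Emcn, endomucin, was at 476 and 403 FPKM at low flow and 72.3 and 113 FPKM at high flow (log2 fold-change 2.36 ± 0.39, adjusted p = 0.0016). Flt1, a receptor of VEGF, was at 16.1 and 30.97 FPKM at low flow and 3.99 and 6.51 FPKM at high flow (log2 fold-change 2.27 ± 0.72, adjusted p = 0.03). Cdh5, VE-cadherin, was at 42.6 and 46.4 FPKM at low flow and 29.6 and 21.6 FPKM at high flow (log2 fold-change 0.90 ± 0.26, adjusted p = 0.018). Tie1, an orphan receptor that partners Tek, was at 73.1 and 79.1 FPKM at low flow and 232 and 188 FPKM at high flow (log2 fold-change -1.35 ± 0.25, adjusted p = 0.0028). Cldn5, a tight junction protein, was at 154 and 166 FPKM at low flow and 393 and 299.9 FPKM at high flow (log2 fold-change -1.01 ± 0.34, adjusted p = 0.04). When libraries were scaled to these endothelial counts in place of TMM, the median of all genes moved from 0.06 to 1.03, 6484 genes were called and 94.02% of them rose against 55.86% as fitted, and the median of the identity list became 1.000 and the log2 fold-change of Cldn5 -0.01 (adjusted p = 0.99). Of the genes named as called, Acvrl1, C1ra, Ccrl2, Cd34, Cd55, Cdkn1c, Cldn5, Dbp, Efnb2, Fbln5, Gja5, Hes1, Icam2, Ifih1, Ifit1, Itgb1, Jund, Mbnl1, Mbnl2, Nqo1, Rb1, Serping1, Tgfbr2, Thbd, Tie1 and Vegfa lost the call under that scaling, with log2 fold-changes of -1.10 to 0.37. Under that scaling 9 laminar flow genes fell, 5 clock genes, 1 complement gene, 3 fibroblast markers, 1 interferon-stimulated gene, 2 Notch genes and 1 BMP and TGF-beta gene. Over all 13401 genes 388 fell. In the endothelial identity list, 1 rose and 3 fell without low-flow replicate 2 and 1 rose and 3 fell without high-flow replicate 2. Cdh5 lost its call without low-flow replicate 1, low-flow replicate 2 or high-flow replicate 2 (adjusted p 0.056 to 0.12), Flt1 without low-flow replicate 2, high-flow replicate 1 or high-flow replicate 2 (0.066 to 0.19), and Cldn5 without any 1 of the 4 libraries (0.051 to 0.23).

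Markers of other cells of the vessel wall moved unevenly. Of the smooth muscle contractile genes, 4 rose and 1 fell of 14 tested, against 19.6% and 15.5% of all genes, and their summed level was 3926 and 2003 FPKM at low flow and 341 and 627 FPKM at high flow. Acta2, smooth muscle actin, was at 2803 and 1484 FPKM at low flow and 151 and 352 FPKM at high flow (log2 fold-change 3.21 ± 0.67, adjusted p = 0.0046). Tagln, transgelin, was at 742 and 287 FPKM at low flow and 60.7 and 94.6 FPKM at high flow (log2 fold-change 2.85 ± 0.50, adjusted p = 0.0022). Myh11, the defining myosin of smooth muscle, was at 0.919 and 0.191 FPKM at low flow and 1.55 and 2.02 FPKM at high flow (adjusted p = 0.15). Cnn1, calponin, was at 7.70 and 3.93 FPKM at low flow and 4.50 and 6.66 FPKM at high flow (adjusted p = 0.84). Acta2 and Tagln thus rose while the defining markers stayed low in all 4 libraries. Of the adventitial fibroblast markers, 0 rose and 5 fell of 10 tested (median log2 fold-change -1.35). Mfap5, a microfibril protein, was at 68.5 and 66.4 FPKM at low flow and 299 and 339 FPKM at high flow (log2 fold-change -2.13 ± 0.34, adjusted p = 0.0014). Cd34, shared with endothelium, was at 193 and 291 FPKM at low flow and 648 and 729 FPKM at high flow (log2 fold-change -1.40 ± 0.30, adjusted p = 0.0054). Pdgfra, the defining receptor of fibroblasts, was at 0.454 and 0.140 FPKM at low flow and 1.58 and 0.775 FPKM at high flow, and Dcn, decorin, at 51.2 and 33.7 FPKM at low flow and 71.3 and 63.5 FPKM at high flow (adjusted p = 0.5). In the smooth muscle list, 2 rose and 1 fell without low-flow replicate 1 and 1 rose and 0 fell without high-flow replicate 1. In the fibroblast list, 0 rose and 3 fell without low-flow replicate 1, 0 rose and 3 fell without low-flow replicate 2 and 0 rose and 3 fell without high-flow replicate 1. Acta2 lost its call without high-flow replicate 1 (adjusted p 0.058), and Cd34 without low-flow replicate 1 (0.051).

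Of fat cell markers, 0 rose and 0 fell of 10 tested by edgeR, where 2 passed an unadjusted p under 0.05, and DESeq2 called 3 lowered. Over all genes DESeq2 lowered 2464 of 13401. All 10 fat cell markers had negative log2 fold-changes (median -1.83). Of these, 8 were lower in both low-flow libraries than in either high-flow library, beside 38.9% of all genes. The summed level of the fat cell markers was 72.2 and 126 FPKM at low flow and 165 and 254 FPKM at high flow. Fabp4, shared by fat cells and capillary endothelium, was at 39.4 and 92.7 FPKM at low flow and 82.6 and 126 FPKM at high flow (adjusted p = 0.63). Ucp1, the uncoupler of brown fat, was at 0.0396 and 4.86 FPKM at low flow and 17.8 and 30.6 FPKM at high flow (adjusted p = 0.2). Erythroid genes reached 3667 and 3778 FPKM at low flow and 977 and 5848 FPKM at high flow, with high-flow replicate 1 the lowest and high-flow replicate 2 the highest library, and 0 rose and 0 fell of 8 tested by edgeR (3 rose without high-flow replicate 2), where 1 passed an unadjusted p under 0.05 and DESeq2 called 1 lowered. Of platelet markers, 1 rose and 1 fell of 9 tested, no more than the 19.6% and 15.5% of all genes. The member that rose was Pf4, which macrophages also make, as given above. The member that fell was Gp1ba, the platelet receptor of von Willebrand factor, at 1.33 and 1.65 FPKM at low flow and 6.48 and 6.23 FPKM at high flow (log2 fold-change -1.98 ± 0.39, adjusted p = 0.0037). Ppbp, another platelet chemokine, was at 10.6 and 11.9 FPKM at low flow and 6.86 and 20.9 FPKM at high flow (adjusted p = 0.86), with overlapping groups. Of lymphocyte markers 1 rose and 0 fell of 10, beside 19.6% of all genes that rose. It was the natural killer cell receptor Klrd1, at 2.17 and 4.50 FPKM at low flow and 0.126 and 0 FPKM at high flow (count ratio 54.01, 95% interval 9.37 to 2165, adjusted p = 0.0059). The T cell chain Cd3e stayed below 1 FPKM in all 4 libraries. For skeletal muscle 0 rose and 0 fell of 8, and for thyroid and parathyroid 0 rose and 0 fell of 3 by edgeR, with 0 at an unadjusted p under 0.05 and 0 called by DESeq2. Myh2 and Gcm2, defining markers of those tissues, were listed at 0 in all 4 libraries.

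**Figure D3:**
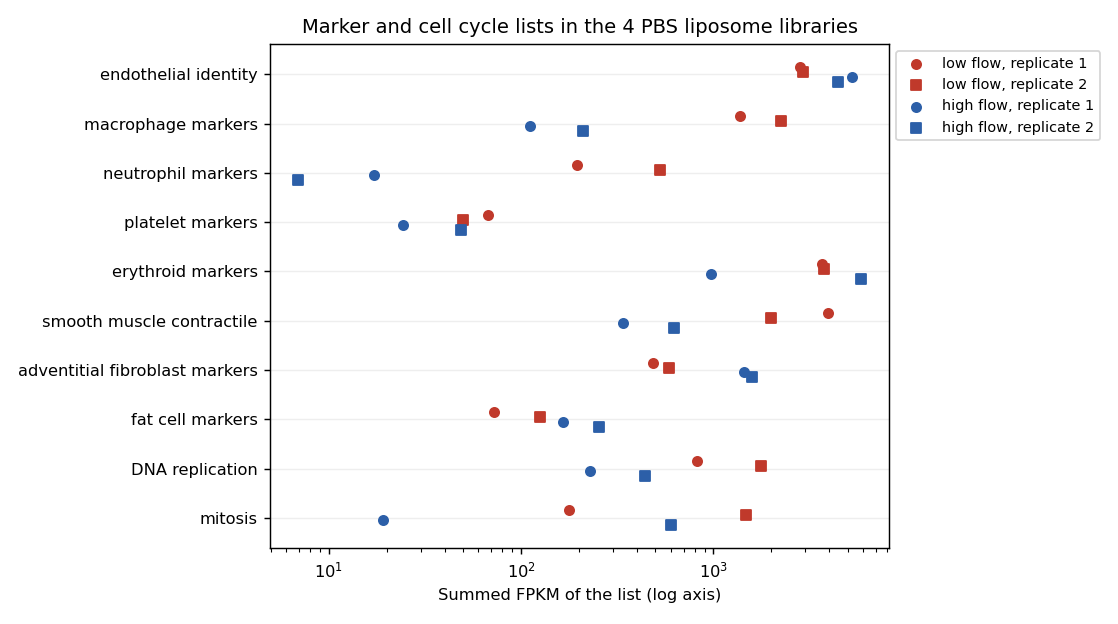
Summed FPKM (horizontal log axis) of 10 marker and cell cycle lists in each PBS liposome library, red for low flow and blue for high flow, circles for replicate 1 and squares for replicate 2. The red points lie above the blue points for macrophage and neutrophil markers, while for mitosis both squares lie above their own circles and the groups overlap.

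Replication genes rose in part, and cell cycle genes differed widely between replicates. Of the DNA replication genes, 12 rose and 0 fell of 26 tested by edgeR (median log2 fold-change 2.31), 7 rose with the length offset and 20 by DESeq2, and their summed level was 818 and 1772 FPKM at low flow and 228 and 439.5 FPKM at high flow. Pcna, the sliding clamp of the replication fork, was at 159 and 342 FPKM at low flow and 38.03 and 72.7 FPKM at high flow (log2 fold-change 2.29 ± 0.58, adjusted p = 0.012). The helicase subunits Mcm5 and Mcm7 and the helicase partner Gins2 followed. Mcm5 was at 37.1 and 77.9 FPKM at low flow and 4.14 and 13.9 FPKM at high flow (log2 fold-change 2.79 ± 0.90, adjusted p = 0.032). Mcm7 was at 58.9 and 108 FPKM at low flow and 11.5 and 25.2 FPKM at high flow (log2 fold-change 2.30 ± 0.68, adjusted p = 0.023). Gins2 was at 27.2 and 90.6 FPKM at low flow and 0.969 and 8.02 FPKM at high flow (log2 fold-change 3.82 ± 1.23, adjusted p = 0.032). Of the mitosis genes, 0 rose and 0 fell of 30 tested by edgeR, where 0 passed an unadjusted p under 0.05 and 0 were called by DESeq2, although the median log2 fold-change was 1.38. Their summed level was 178 and 1484 FPKM at low flow and 19.2 and 599 FPKM at high flow, so high-flow replicate 2 lay above low-flow replicate 1, while low flow lay above high flow within each replicate number. Ube2c, a ubiquitin-conjugating enzyme of mitotic exit, was at 21.3 and 216 FPKM at low flow and 1.56 and 49.2 FPKM at high flow (adjusted p = 0.25). Birc5, survivin, was at 19.3 and 160.3 FPKM at low flow and 0.542 and 45.5 FPKM at high flow (adjusted p = 0.34). In both the replicate 2 libraries stood above the replicate 1 library of the same flow. Without high-flow replicate 2, 6 of the 30 mitosis genes rose, and without low-flow replicate 2 or high-flow replicate 1 none of the replication genes did. With the replicate number as a block, 20 of the 30 mitosis genes and 23 of the 26 replication genes rose, but the labels do not say that the numbers pair the pools.

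Among G1 cyclins, kinases and inhibitors, 6 rose and 2 fell of 19 tested, against 19.6% and 15.5% of all genes. Ccnd1, cyclin D1, was at 84.9 and 107 FPKM at low flow and 11.8 and 10.3 FPKM at high flow (log2 fold-change 3.22 ± 0.65, adjusted p = 0.0041). Cdk4, its kinase, was at 374 and 444 FPKM at low flow and 88.5 and 126 FPKM at high flow (log2 fold-change 2.04 ± 0.39, adjusted p = 0.0032). Myc was at 142 and 86.6 FPKM at low flow and 3.84 and 35.5 FPKM at high flow (log2 fold-change 2.66 ± 0.85, adjusted p = 0.031). Cdk6 was at 1.46 and 2.85 FPKM at low flow and 0.372 and 0.275 FPKM at high flow (log2 fold-change 2.83 ± 0.72, adjusted p = 0.012), and the inhibitor Cdkn2b at 2.09 and 2.92 FPKM at low flow and 0.116 and 0.284 FPKM at high flow (log2 fold-change 3.72 ± 0.94, adjusted p = 0.011). Cyclin D1 and its kinase showed narrow replicates and no overlap, whereas Myc differed widely between the high-flow libraries. The members that fell, chosen after their values were seen, were Cdkn1c and Rb1. Cdkn1c, a kinase inhibitor, was at 9.37 and 8.03 FPKM at low flow and 25.9 and 25.00 FPKM at high flow (log2 fold-change -1.44 ± 0.40, adjusted p = 0.017). Rb1, the retinoblastoma protein, was at 4.56 and 5.36 FPKM at low flow and 17.7 and 11.1 FPKM at high flow (log2 fold-change -1.43 ± 0.27, adjusted p = 0.0031). In the G1 list, 2 rose and 1 fell without low-flow replicate 2 and 2 rose and 1 fell without high-flow replicate 1. Pcna, Mcm5, Mcm7, Gins2 and Cdkn2b lost their calls without low-flow replicate 2 or high-flow replicate 1 (adjusted p 0.066 to 0.21), Myc and Cdkn1c without low-flow replicate 1, low-flow replicate 2 or high-flow replicate 1 (0.06 to 0.13), and Cdk6 without low-flow replicate 2, high-flow replicate 1 or high-flow replicate 2 (0.07 to 0.089). Pcna (adjusted p = 0.054) and Gins2 (adjusted p = 0.087) lost their calls with the length offset.

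Ribosome biogenesis genes rose with and without the length offset. Of 23 members tested, 18 rose and 0 fell, and the median log2 fold-change was 1.79 as fitted, and 18 rose with the offset (median 1.84). Npm1, nucleophosmin of the granular nucleolus, was at 705 and 646 FPKM at low flow and 99.8 and 116 FPKM at high flow (log2 fold-change 2.76 ± 0.39, adjusted p = 0.00074). Fbl, fibrillarin, which methylates ribosomal RNA, was at 226 and 175 FPKM at low flow and 20.3 and 33.4 FPKM at high flow (log2 fold-change 3.02 ± 0.48, adjusted p = 0.0013). Nhp2, of the complex that makes pseudouridine, was at 167 and 177 FPKM at low flow and 9.23 and 17.5 FPKM at high flow (log2 fold-change 3.80 ± 0.62, adjusted p = 0.0015). Gar1, of the same complex, was at 109 and 93.7 FPKM at low flow and 9.94 and 16.6 FPKM at high flow (log2 fold-change 3.04 ± 0.48, adjusted p = 0.0013). Ncl, nucleolin, was at 146 and 123 FPKM at low flow and 35.5 and 38.7 FPKM at high flow (log2 fold-change 1.97 ± 0.47, adjusted p = 0.0089). Nop58, a core protein of box C/D particles, was at 147 and 130.1 FPKM at low flow and 14.8 and 24.5 FPKM at high flow (log2 fold-change 2.94 ± 0.55, adjusted p = 0.0028). For each, both low-flow libraries lay above both high-flow libraries. In the ribosome biogenesis list, 8 rose and 0 fell without high-flow replicate 1. Ncl lost its call without high-flow replicate 1 (adjusted p 0.075). The ribosomal protein genes, whose transcripts are short, rose in 73 of 73 (median 3.005) and in 65 with the offset (median 1.19), which their many processed copies make uncertain.

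Among energy genes, the respiratory chain calls depended on length, while the glycolysis count moved little. Of the respiratory chain subunits, 23 rose and 0 fell of 28 tested (median 1.33), against 19.6% and 15.5% of all genes. With the length offset 4 rose and 1 fell (median 0.21), near or below the 13.7% and 13.9% of all genes. Ndufa4 was at 322 and 361 FPKM at low flow and 87.02 and 97.4 FPKM at high flow (log2 fold-change 1.998 ± 0.26, adjusted p = 0.00051), and with the offset its log2 fold-change was -0.26. Cycs, cytochrome c, was at 141 and 145 FPKM at low flow and 29.99 and 42.4 FPKM at high flow (log2 fold-change 2.09 ± 0.51, adjusted p = 0.01) and kept its call with the offset (log2 fold-change 2.28). Cytochrome c thus rose in both fits and Ndufa4 in the fit without the offset. Of the glycolysis genes, 10 rose and 1 fell of 22 tested, and 9 rose with the offset, against 19.6% and 13.7% of all genes that rose in these fits. Gapdh was at 1894 and 2325 FPKM at low flow and 492 and 595 FPKM at high flow (log2 fold-change 2.07 ± 0.35, adjusted p = 0.0017). Pgk1, phosphoglycerate kinase, was at 288 and 424 FPKM at low flow and 53.2 and 89.9 FPKM at high flow (log2 fold-change 2.43 ± 0.55, adjusted p = 0.0065). Ldha, lactate dehydrogenase, was at 1169.8 and 1212 FPKM at low flow and 393 and 506 FPKM at high flow (log2 fold-change 1.52 ± 0.33, adjusted p = 0.0056). Aldoa, aldolase, was at 649.8 and 587 FPKM at low flow and 505 and 517 FPKM at high flow (adjusted p = 0.12). In the glycolysis list, 6 rose and 0 fell without low-flow replicate 2 and 1 rose and 0 fell without high-flow replicate 1. Cycs, Pgk1 and Ldha lost their calls without high-flow replicate 1 (adjusted p 0.067 to 0.096). Ndufa4 (adjusted p = 0.2) lost its call with the length offset.

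Chaperone genes included raised members. Of the unfolded protein response genes, 6 rose and 0 fell of 20 tested (median 0.68), against 19.6% and 15.5% of all genes, and of the heat shock and cold-inducible genes 7 rose and 0 fell of 14 (median 0.90). Under the length offset 4 unfolded protein response genes rose and 2 fell, against 13.7% and 13.9% of all genes. Manf, a secreted factor of endoplasmic reticulum stress, was at 146 and 173 FPKM at low flow and 23.7 and 35.3 FPKM at high flow (log2 fold-change 2.55 ± 0.41, adjusted p = 0.0014). Atf4, the factor of the integrated stress response, was at 229.6 and 139 FPKM at low flow and 40.2 and 52.4 FPKM at high flow (log2 fold-change 2.11 ± 0.42, adjusted p = 0.0039). Hspa5, the main chaperone of the endoplasmic reticulum, was at 991 and 1139 FPKM at low flow and 449 and 686 FPKM at high flow (adjusted p = 0.069). Hspe1, a chaperonin of mitochondria, was at 229 and 189 FPKM at low flow and 12.95 and 15.4 FPKM at high flow (log2 fold-change 3.996 ± 0.54, adjusted p = 0.00063). Hspd1, its partner, was at 329 and 306 FPKM at low flow and 71.00 and 89.2 FPKM at high flow (log2 fold-change 2.10 ± 0.51, adjusted p = 0.0095). The heat-inducible Hspa1a was at 23.3 and 14.6 FPKM at low flow and 44.8 and 42.2 FPKM at high flow (adjusted p = 0.067), and the cold-inducible Rbm3 at 506 and 526 FPKM at low flow and 175 and 237 FPKM at high flow (log2 fold-change 1.44 ± 0.26, adjusted p = 0.0026). The mitochondrial chaperonins rose without overlap, while the inducible cytosolic chaperone was not called. In the unfolded protein response, 1 rose and 0 fell without high-flow replicate 1. In the heat shock list, 4 rose and 0 fell without low-flow replicate 1, 2 rose and 0 fell without high-flow replicate 1 and 4 rose and 0 fell without high-flow replicate 2. Atf4 and Hspd1 lost their calls without high-flow replicate 1 (adjusted p 0.052 to 0.087).

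Circadian clock genes were lower at low flow. Of 14 members tested, 0 rose and 9 fell, and the median log2 fold-change was -1.71, and 6 fell with the length offset (median -1.53). Per2, a repressor of the clock, was at 1.32 and 1.09 FPKM at low flow and 15.5 and 7.67 FPKM at high flow (log2 fold-change -3.15 ± 0.45, adjusted p = 0.00086). Cry2, its partner, was at 8.04 and 5.51 FPKM at low flow and 37.3 and 28.3 FPKM at high flow (log2 fold-change -2.17 ± 0.35, adjusted p = 0.0014). Nr1d2, REV-ERB beta, was at 20.1 and 16.1 FPKM at low flow and 85.6 and 81.8 FPKM at high flow (log2 fold-change -2.10 ± 0.28, adjusted p = 0.00056). Tef, an output factor, was at 21.7 and 13.1 FPKM at low flow and 119.9 and 85.3 FPKM at high flow (log2 fold-change -2.45 ± 0.46, adjusted p = 0.0029). Dbp, another output factor, was at 22.6 and 16.3 FPKM at low flow and 71.9 and 101 FPKM at high flow (log2 fold-change -2.04 ± 0.71, adjusted p = 0.043). The activators were not called. Arntl was at 5.59 and 4.94 FPKM at low flow and 3.16 and 4.42 FPKM at high flow (adjusted p = 0.37). Clock was at 3.42 and 2.98 FPKM at low flow and 4.46 and 3.03 FPKM at high flow (adjusted p = 0.84). The repressor and output genes named here fell, while Arntl lay higher at low flow in both libraries without passing the test and Clock overlapped between groups. The E-box letters CACGTG, which the activators bind, were in 7.15% of all promoter windows and in 5 of the 14 members with a window (Bhlhe41, Ciart, Cry1, Per1 and Tef), and not in those of Cry2, Nr1d2 or Dbp. Here too the percentage counts windows and the member count counts genes with a match in any window. The hour of collection is not given in the labels for either group. In the clock list, 0 rose and 5 fell without low-flow replicate 2 and 0 rose and 5 fell without high-flow replicate 1. Dbp lost its call without any 1 of the 4 libraries (adjusted p 0.1 to 0.21).

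Complement components fell in part. Of 16 members tested, 2 rose and 8 fell, and the median log2 fold-change was -1.14. Over all genes 15.5% fell. C1ra, a protease of the classical pathway, was at 22.5 and 11.6 FPKM at low flow and 61.6 and 62.9 FPKM at high flow (log2 fold-change -1.76 ± 0.49, adjusted p = 0.018). Serping1, its inhibitor, was at 36.98 and 22.3 FPKM at low flow and 75.8 and 104 FPKM at high flow (log2 fold-change -1.48 ± 0.49, adjusted p = 0.037). Cd55, decay accelerating factor, was at 12.1 and 11.1 FPKM at low flow and 27.8 and 27.9 FPKM at high flow (log2 fold-change -1.15 ± 0.28, adjusted p = 0.0099). The members that rose were C1qb and C5ar1. C1qb, a macrophage marker too, was at 41.2 and 25.8 FPKM at low flow and 7.16 and 11.1 FPKM at high flow (log2 fold-change 1.99 ± 0.53, adjusted p = 0.014). C5ar1, the anaphylatoxin receptor of myeloid cells, was at 14.5 and 24.5 FPKM at low flow and 0.770 and 1.54 FPKM at high flow (log2 fold-change 4.18 ± 0.51, adjusted p = 0.00037). Under the length offset 2 complement genes rose and 5 fell. Scaling to endothelial counts turned the list to 5 raised and 1 lowered of 16, while over all genes it gave 6096 raised and 388 lowered of 13401. With that scaling C1ra and Cd55 had log2 fold-changes of -0.79 and -0.18 (adjusted p = 0.15 and 0.64). Of the interferon-stimulated genes, 0 rose and 5 fell of 20 tested (median -0.94, which became 0.01 under scaling to endothelial counts), against 15.5% of all genes that fell. Under the length offset 0 interferon-stimulated genes rose and 2 fell, against 13.9% of all genes that fell. Stat2 was at 4.02 and 3.13 FPKM at low flow and 13.5 and 14.8 FPKM at high flow (log2 fold-change -1.88 ± 0.38, adjusted p = 0.0041). Ifih1, a sensor of viral RNA, was at 1.60 and 1.203 FPKM at low flow and 4.88 and 4.05 FPKM at high flow (log2 fold-change -1.56 ± 0.35, adjusted p = 0.0066). Ifit1 was at 4.36 and 2.99 FPKM at low flow and 12.97 and 15.3 FPKM at high flow (log2 fold-change -1.83 ± 0.64, adjusted p = 0.045). In the complement list, 1 rose and 5 fell without low-flow replicate 1, 2 rose and 0 fell without low-flow replicate 2, 1 rose and 0 fell without high-flow replicate 1 and 2 rose and 5 fell without high-flow replicate 2. In the interferon list, 1 rose and 3 fell without low-flow replicate 1, 0 rose and 2 fell without low-flow replicate 2, 0 rose and 2 fell without high-flow replicate 1 and 1 rose and 3 fell without high-flow replicate 2. C1qb lost its call without low-flow replicate 1 or high-flow replicate 1 (adjusted p 0.083 to 0.12), C1ra, Cd55 and Ifih1 without low-flow replicate 2 or high-flow replicate 1 (0.059 to 0.15), and Serping1 and Ifit1 without any 1 of the 4 libraries (0.06 to 0.23). C1qb (adjusted p = 0.15) and Ifit1 (adjusted p = 0.064) lost their calls with the length offset.

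Matrix genes included called members in both directions. Of the fibronectin and matricellular genes, 5 rose and 5 fell of 20 tested (median 0.29), against 19.6% and 15.5% of all genes, and with the length offset 7 rose and 3 fell. Spp1, osteopontin, was at 169.9 and 127 FPKM at low flow and 1.197 and 2.30 FPKM at high flow (log2 fold-change 6.51 ± 0.93, adjusted p = 0.00083). Thbs1, thrombospondin 1, was at 1171 and 414 FPKM at low flow and 175 and 145 FPKM at high flow (log2 fold-change 2.42 ± 0.69, adjusted p = 0.019). Eln, elastin, was at 108 and 57.2 FPKM at low flow and 760.0 and 521 FPKM at high flow (log2 fold-change -2.84 ± 0.65, adjusted p = 0.0072). Fbln5, which anchors elastic fibers, was at 81.9 and 72.1 FPKM at low flow and 239.6 and 268 FPKM at high flow (log2 fold-change -1.61 ± 0.47, adjusted p = 0.021). Fn1, fibronectin, whose splicing by flow the study examined, was at 57.5 and 38.7 FPKM at low flow and 42.7 and 21.2 FPKM at high flow as a gene (log2 fold-change 0.70 ± 0.50, adjusted p = 0.3). Of the metalloproteases and their inhibitors, 7 rose and 3 fell of 17 tested (median 1.74). The inhibitors parted. Timp1 was at 247 and 178 FPKM at low flow and 7.97 and 14.04 FPKM at high flow (log2 fold-change 4.38 ± 0.53, adjusted p = 0.00035). Timp2 was at 286 and 226 FPKM at low flow and 1051 and 968 FPKM at high flow (log2 fold-change -1.87 ± 0.36, adjusted p = 0.0033). Timp3 was at 152 and 57.3 FPKM at low flow and 705 and 501 FPKM at high flow (log2 fold-change -2.42 ± 0.46, adjusted p = 0.0029). Adam8, a sheddase of leukocytes, was at 4.79 and 12.4 FPKM at low flow and 0.0999 and 0.368 FPKM at high flow (log2 fold-change 5.29 ± 0.97, adjusted p = 0.0027). Mmp14, a membrane-bound collagenase, was at 109 and 216 FPKM at low flow and 38.5 and 66.2 FPKM at high flow (log2 fold-change 1.74 ± 0.50, adjusted p = 0.02). Eln and Fbln5 fell and Spp1 and Thbs1 rose as fitted, each without overlap of the groups.

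Of the collagen chains, 1 rose and 3 fell of 15 tested (median -0.98), against 19.6% and 15.5% of all genes. Col1a2, a chain of the main fibrillar collagen, was at 12.6 and 8.02 FPKM at low flow and 62.1 and 41.7 FPKM at high flow (log2 fold-change -2.22 ± 0.40, adjusted p = 0.0024). Col4a1, of the basement membrane, was at 52.2 and 39.5 FPKM at low flow and 65.3 and 42.1 FPKM at high flow (adjusted p = 0.86). The fibrillar chain fell and the basement membrane chain overlapped between groups. In the matricellular list, 3 rose and 2 fell without low-flow replicate 1, 3 rose and 2 fell without low-flow replicate 2, 2 rose and 1 fell without high-flow replicate 1 and 4 rose and 3 fell without high-flow replicate 2. In the metalloprotease list, 4 rose and 3 fell without low-flow replicate 1, 3 rose and 3 fell without low-flow replicate 2 and 2 rose and 2 fell without high-flow replicate 1. The call of the raised collagen chain was lost without any 1 of the 4 libraries. The median log2 fold-change of the collagen list was -0.67 without high-flow replicate 1. Under scaling to endothelial counts 4 rose and 2 fell of the 15 (median -0.01), while over all 13401 genes 6096 rose and 388 fell. Eln and Mmp14 lost their calls without low-flow replicate 2 or high-flow replicate 1 (adjusted p 0.052 to 0.16), Thbs1 without low-flow replicate 1, high-flow replicate 1 or high-flow replicate 2 (0.088 to 0.15), and Fbln5 without any 1 of the 4 libraries (0.063 to 0.12). Fbln5 (adjusted p = 0.09) lost its call with the length offset.

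Vascular signalling genes changed by member. Of the angiopoietin and VEGF genes, 4 rose and 4 fell of 14 tested, against 19.6% and 15.5% of all genes. Angpt1, the agonist of Tek, was at 0.393 and 0.614 FPKM at low flow and 3.69 and 2.40 FPKM at high flow (log2 fold-change -2.49 ± 0.56, adjusted p = 0.0066), beside the higher Angpt2 and lower Tek given above. Pgf, placental growth factor, was at 90.5 and 29.1 FPKM at low flow and 0.557 and 3.64 FPKM at high flow (log2 fold-change 4.95 ± 1.28, adjusted p = 0.013). Vegfa was at 4.33 and 4.44 FPKM at low flow and 12.6 and 9.58 FPKM at high flow (log2 fold-change -1.23 ± 0.43, adjusted p = 0.044). The agonist and the receptor of the angiopoietin pathway fell while the antagonist rose. Of the Notch and arterial identity genes, 3 rose and 7 fell of 16 tested, beside the same shares of all genes. Dll1, a Notch ligand, was at 3.44 and 6.38 FPKM at low flow and 70.5 and 46.5 FPKM at high flow (log2 fold-change -3.47 ± 0.44, adjusted p = 0.00049). Jag1, another ligand, was at 3.86 and 6.42 FPKM at low flow and 26.8 and 16.1 FPKM at high flow (log2 fold-change -1.96 ± 0.37, adjusted p = 0.0029). Efnb2, ephrin B2 of arteries, was at 15.8 and 23.2 FPKM at low flow and 74.2 and 45.1 FPKM at high flow (log2 fold-change -1.51 ± 0.32, adjusted p = 0.0053). Dll4, the ligand of tip cells, was at 23.5 and 51.4 FPKM at low flow and 6.75 and 14.9 FPKM at high flow (log2 fold-change 1.90 ± 0.52, adjusted p = 0.016). Hey1, a target of Notch, was at 1.96 and 13.5 FPKM at low flow and 3.12 and 4.48 FPKM at high flow (adjusted p = 0.25). Hes1, another target, was at 15.3 and 27.7 FPKM at low flow and 50.98 and 56.4 FPKM at high flow (log2 fold-change -1.22 ± 0.36, adjusted p = 0.023). Under scaling to endothelial counts the list medians changed sign, from -0.22 to 0.79 for angiopoietin and VEGF genes and from -0.56 to 0.46 for Notch genes. In the angiopoietin and VEGF list, 2 rose and 2 fell without low-flow replicate 1, 2 rose and 3 fell without low-flow replicate 2, 1 rose and 2 fell without high-flow replicate 1 and 2 rose and 3 fell without high-flow replicate 2. In the Notch list, 4 rose and 4 fell without low-flow replicate 1, 1 rose and 5 fell without low-flow replicate 2 and 0 rose and 3 fell without high-flow replicate 1. Efnb2 lost its call without high-flow replicate 1 (adjusted p 0.066), Angpt1 and Pgf without low-flow replicate 1 or high-flow replicate 1 (0.057 to 0.1), Dll4 without low-flow replicate 2 or high-flow replicate 1 (0.14 to 0.15), Hes1 without low-flow replicate 1, high-flow replicate 1 or high-flow replicate 2 (0.076 to 0.17), and Vegfa without any 1 of the 4 libraries (0.06 to 0.22). Vegfa (adjusted p = 0.1) lost its call with the length offset.

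Of the BMP and TGF-beta genes, 1 rose and 4 fell of 18 tested (median -0.33, or 0.66 under scaling to endothelial counts). Tgfbr2, the type II receptor, was at 21.9 and 23.04 FPKM at low flow and 75.97 and 55.8 FPKM at high flow (log2 fold-change -1.45 ± 0.27, adjusted p = 0.0027). Acvrl1, the receptor ALK1 of endothelium, was at 52.3 and 37.3 FPKM at low flow and 109 and 87.8 FPKM at high flow (log2 fold-change -1.02 ± 0.25, adjusted p = 0.01). Tgfb3 was at 1.998 and 2.41 FPKM at low flow and 10.5 and 10.2 FPKM at high flow (log2 fold-change -2.12 ± 0.31, adjusted p = 0.00094). Inhba, the activin A subunit, was at 8.70 and 12.04 FPKM at low flow and 1.09 and 1.999 FPKM at high flow (log2 fold-change 2.85 ± 0.61, adjusted p = 0.0052). Bmp4, often raised by disturbed flow, was at 579.7 and 365 FPKM at low flow and 281 and 343 FPKM at high flow (adjusted p = 0.12). The share of the list that fell compares with 15.5% of all genes, and under scaling to endothelial counts the log2 fold-change of Acvrl1 was -0.03. Of the coagulation and fibrinolysis genes, 4 rose and 1 fell of 16 tested, against 19.6% and 15.5% of all genes. Procr, the endothelial protein C receptor, was at 1190.4 and 1388 FPKM at low flow and 238 and 385 FPKM at high flow (log2 fold-change 2.16 ± 0.53, adjusted p = 0.01). Plaur, the urokinase receptor, was at 382 and 398 FPKM at low flow and 60.2 and 172 FPKM at high flow (log2 fold-change 1.87 ± 0.65, adjusted p = 0.045). Tissue factor, F3, was at 3.84 and 1.13 FPKM at low flow and 2.17 and 3.20 FPKM at high flow (adjusted p = 1), and von Willebrand factor, Vwf, at 83.1 and 47.2 FPKM at low flow and 187 and 97.4 FPKM at high flow (adjusted p = 0.12). Within the protein C pathway the receptor rose and thrombomodulin fell. In the BMP list, 1 rose and 2 fell without low-flow replicate 2 and 0 rose and 2 fell without high-flow replicate 1. With low-flow replicate 2 or high-flow replicate 1 left out, fewer coagulation genes were called, as was so over all genes. The median log2 fold-change of the coagulation list was 0.573 without low-flow replicate 2 and 0.26 without high-flow replicate 1, against 0.283 with all 4 libraries. Inhba and Procr lost their calls without high-flow replicate 1 (adjusted p 0.064 to 0.1), Acvrl1 without low-flow replicate 2 or high-flow replicate 1 (0.097 to 0.11), and Plaur without low-flow replicate 1, low-flow replicate 2 or high-flow replicate 1 (0.11 to 0.27). Plaur (adjusted p = 0.16) lost its call with the length offset.

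The study asked how flow changes splicing, so the levels of splicing regulators are given. Of 23 tested, 9 rose and 2 fell (median 0.55), against 19.6% and 15.5% of all genes, and with the length offset 12 rose and 1 fell, against 13.7% and 13.9%. Rbfox2, the splicing factor the study follows, was at 4.59 and 6.90 FPKM at low flow and 2.74 and 3.11 FPKM at high flow (log2 fold-change 1.08 ± 0.33, adjusted p = 0.027). The study describes only a modest rise of Rbfox2 RNA at low flow in vivo, smaller than this one, and does not tie it to this treatment. From transcript levels it saw no obvious candidate among splicing factors. Hnrnpa1, a repressor of exons, was at 169 and 188 FPKM at low flow and 30.2 and 53.5 FPKM at high flow (log2 fold-change 2.21 ± 0.45, adjusted p = 0.0043). Srsf2, Srsf3 and Srsf7 activate exons. Srsf2 was at 478 and 557 FPKM at low flow and 152 and 230.0 FPKM at high flow (log2 fold-change 1.55 ± 0.39, adjusted p = 0.01). Srsf3 was at 331 and 367 FPKM at low flow and 140.4 and 173 FPKM at high flow (log2 fold-change 1.26 ± 0.27, adjusted p = 0.0052). Srsf7 was at 174 and 208 FPKM at low flow and 75.9 and 97.2 FPKM at high flow (log2 fold-change 1.25 ± 0.31, adjusted p = 0.0099). For each of these factors both low-flow libraries lay above both high-flow libraries. Srsf5 was at 249 and 238 FPKM at low flow and 271 and 239.7 FPKM at high flow (adjusted p = 0.92). The muscleblind regulators Mbnl1 and Mbnl2 fell and were chosen after their values were seen. Mbnl1 was at 64.7 and 60.3 FPKM at low flow and 159 and 138 FPKM at high flow (log2 fold-change -1.14 ± 0.25, adjusted p = 0.0063). Mbnl2 was at 48.8 and 58.8 FPKM at low flow and 87.04 and 88.9 FPKM at high flow (log2 fold-change -0.60 ± 0.18, adjusted p = 0.024), a direction that turned under scaling to endothelial counts (log2 fold-change 0.37). In the splicing list, 3 rose and 0 fell without low-flow replicate 2 and 1 rose and 0 fell without high-flow replicate 1. Hnrnpa1 and Srsf3 lost their calls without high-flow replicate 1 (adjusted p 0.057 to 0.063), Srsf2, Srsf7 and Mbnl1 without low-flow replicate 2 or high-flow replicate 1 (0.057 to 0.11), Rbfox2 without low-flow replicate 2, high-flow replicate 1 or high-flow replicate 2 (0.075 to 0.21), and Mbnl2 without any 1 of the 4 libraries (0.064 to 0.17). Mbnl2 (adjusted p = 0.65) lost its call with the length offset.

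The remaining lists are read against the 19.6% of all genes that rose and the 15.5% that fell. Of the NF-kB subunits and feedback genes, 3 rose and 1 fell of 15 tested (median 0.32). Nfkbib, an inhibitor, was at 51.2 and 45.5 FPKM at low flow and 17.3 and 22.2 FPKM at high flow (log2 fold-change 1.40 ± 0.23, adjusted p = 0.0016). Nfkbia, the feedback inhibitor that NF-kB induces, was at 200.5 and 187 FPKM at low flow and 174 and 159.6 FPKM at high flow (adjusted p = 0.35). Of the immediate early genes 4 rose and 1 fell of 19 tested. With the length offset 2 rose and 2 fell. Junb was at 314 and 251 FPKM at low flow and 60.6 and 158 FPKM at high flow (log2 fold-change 1.49 ± 0.41, adjusted p = 0.017). Jund was at 46.8 and 46.7 FPKM at low flow and 83.6 and 123 FPKM at high flow (log2 fold-change -1.03 ± 0.24, adjusted p = 0.0084). Members of the same transcription factor family thus moved in opposite directions. Of the NRF2 targets 4 rose and 1 fell of 14, and Gsr, glutathione reductase, was at 85.9 and 124 FPKM at low flow and 37.7 and 53.05 FPKM at high flow (log2 fold-change 1.32 ± 0.30, adjusted p = 0.007). Of the phagocytosis and lysosome genes 7 rose and 4 fell of 23. Fcgr3, an Fc receptor of leukocytes, was at 43.2 and 86.3 FPKM at low flow and 4.24 and 4.70 FPKM at high flow (log2 fold-change 3.96 ± 0.54, adjusted p = 0.00061). Gas6, the bridge between dying cells and phagocytes, was at 88.9 and 51.4 FPKM at low flow and 334 and 331 FPKM at high flow (log2 fold-change -2.13 ± 0.44, adjusted p = 0.0046). The receptor of phagocytes rose and the bridging ligand fell, with no overlap. Of cholesterol synthesis genes 2 rose and 0 fell of 18, and of fatty acid handling genes 2 rose and 0 fell of 13. Without low-flow replicate 2 or high-flow replicate 1 the raised cholesterol genes numbered 0, and the raised fatty acid genes 1 without low-flow replicate 2 or either high-flow library. Ikbkg, the regulatory subunit NEMO of the NF-kB kinase, was at 5.06 and 4.38 FPKM at low flow and 7.31 and 8.29 FPKM at high flow (adjusted p = 0.062). Yap1, the coactivator of TEAD factors, was at 9.79 and 10.2 FPKM at low flow and 12.1 and 8.34 FPKM at high flow (adjusted p = 0.89). In the NF-kB list, 1 rose and 1 fell without low-flow replicate 2 and 1 rose and 1 fell without high-flow replicate 1. In the immediate early list, 2 rose and 1 fell without low-flow replicate 1 and 0 rose and 1 fell without high-flow replicate 1. In the NRF2 list, 1 rose and 1 fell without low-flow replicate 2 and 1 rose and 1 fell without high-flow replicate 1. In the phagocytosis list, 7 rose and 1 fell without low-flow replicate 2 and 4 rose and 3 fell without high-flow replicate 1. Gas6 lost its call without low-flow replicate 2 (adjusted p 0.051), Junb without low-flow replicate 1 or high-flow replicate 1 (0.082 to 0.13), Gsr without low-flow replicate 2 or high-flow replicate 1 (0.066 to 0.083), and Jund without low-flow replicate 2 or high-flow replicate 2 (0.063 to 0.07). Junb (adjusted p = 0.05) lost its call with the length offset.

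**Figure D4:**
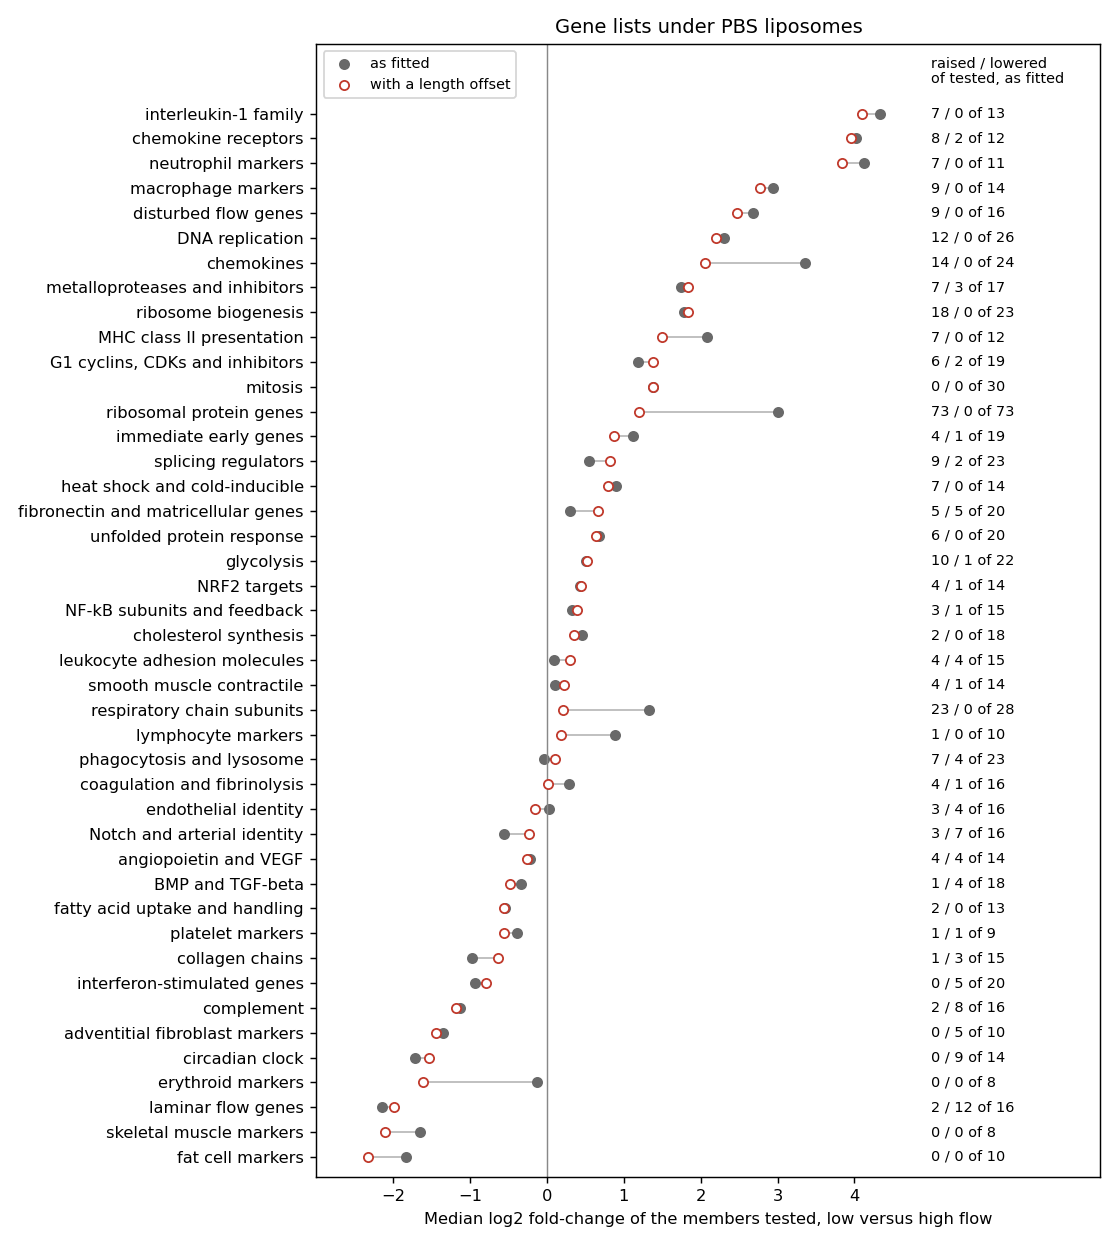
Median log2 fold-change of low versus high flow under PBS liposomes (horizontal axis) of each gene list with 8 or more tested members, as fitted (filled) and with the length offset (open), with the numbers of members that rose and fell at the right. Interleukin-1, chemokine receptor and leukocyte lists lie at the top, laminar flow and clock lists near the bottom, and the respiratory chain median moves from 1.33 to 0.21 with the offset.

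The same flow comparison was made in mice given IgG and in untreated mice, with no library shared with the PBS liposome comparison. Under IgG 22.8% of 13401 genes rose and 17.7% fell, and in untreated mice 23.9% of 12494 rose and 20.2% fell. Of the genes called in the PBS liposome comparison, 3701 were called in the same direction under IgG, 78.9% of the PBS calls and 68.3% of the IgG calls, and 5 in the opposite direction. The IgG comparison has the same split of runs between low and high flow, and what the run adds to this overlap was not tested. With untreated mice, which have no such split, 2812 of the 12327 genes tested in both were called in the same direction, 60.7% of the 4633 PBS calls and 51.3% of the 5484 untreated calls among these genes, and 64 were opposite. Laminar flow genes fell in 13 of 16 under IgG and 13 of 16 in untreated mice, and Klf2 had log2 fold-changes of -3.75 and -4.28. Disturbed flow genes rose in 10 of 16 and 10 of 15, and Angpt2 had log2 fold-changes of 7.63 and 7.77. With the length offset the IgG comparison raised 2247 and lowered 2177 of all 13401 genes. It raised 6 of 16 disturbed flow genes and 5 of 30 mitosis genes and lowered 5 of 14 clock genes. The mitosis count is near the share of all genes that rose. Fat cell markers, of which edgeR called 0 and DESeq2 3 lowered under PBS liposomes, fell by edgeR in 1 of 10 under IgG and 11 of 11 in untreated mice, and the part of such tissue in the results was not tested. Clock genes fell in 8 of 14 and 9 of 14. MHC class II genes rose in 11 of 12 and 11 of 11, and DNA replication genes in 25 of 26 and 26 of 26. Mitosis genes, with none called under PBS liposomes by edgeR without the replicate block, rose in 10 of 30 under IgG and in 30 of 30 in untreated mice. The counts of the IgG comparison also rested on single libraries, with 5422 calls in all, 2141 without low-flow IgG replicate 2 and 3581 without high-flow IgG replicate 1.

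**Figure D5:**
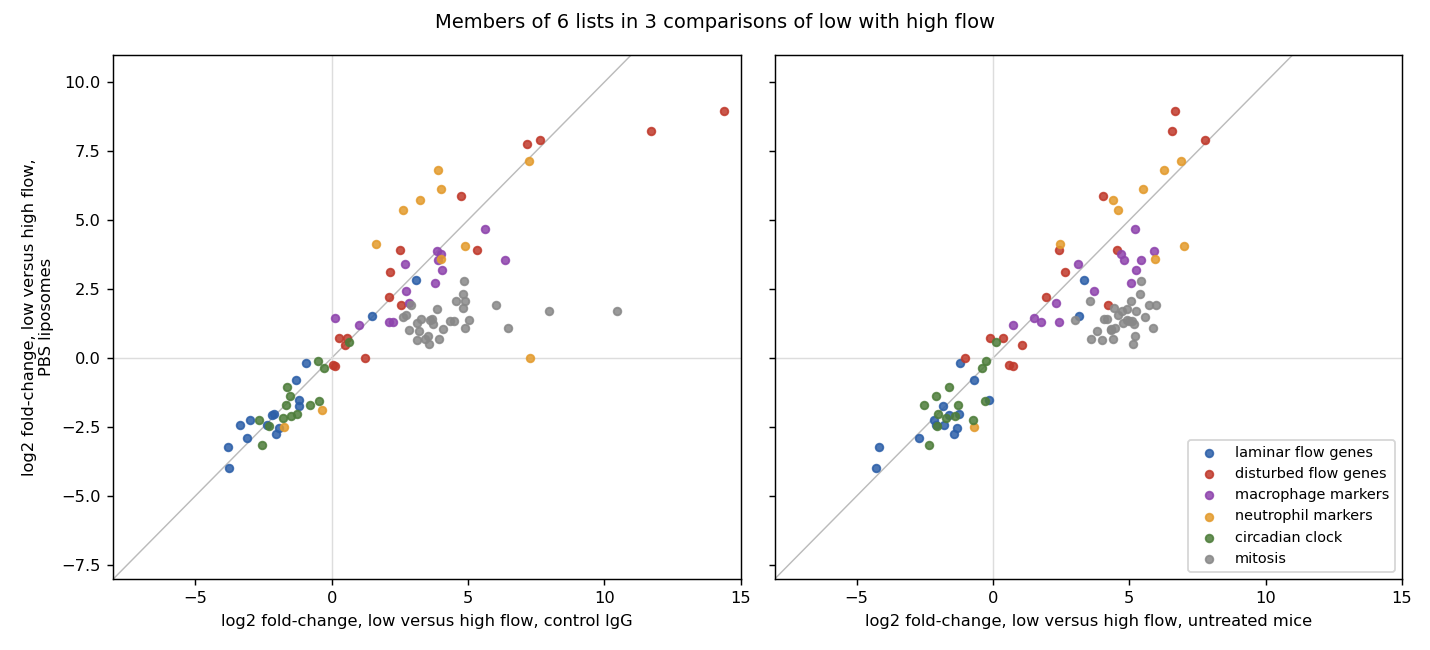
Log2 fold-change of low versus high flow under PBS liposomes (vertical axis) against that under control IgG (left) and in untreated mice (right) for the members of 6 lists, 1 point a gene, with the line of equal change, where the fitted value of a gene at 0 in a group depends on the prior count. Laminar flow and clock genes fall mostly in the lower left and macrophage, neutrophil and disturbed flow genes in the upper right, while mitosis genes lie below the line in both panels, with a median of 1.38 under PBS liposomes and 4.84 in untreated mice.

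Whether flow acted differently under PBS liposomes was tested as an interaction. Against IgG, 0% of genes passed in edgeR (0 genes, 801 at an unadjusted p under 0.05, and 30 genes in DESeq2), and 0% with the length offset. Without high-flow IgG replicate 2, 22 genes passed. The genes with the smallest p-values included Trpv2, Wasf2, Eml2, Mbd2, Emr4, Vapb and Ptpn11. Wasf2, which nucleates branched actin at membranes, had log2 fold-changes of 1.02 under PBS liposomes and -1.17 under IgG (difference 2.19 ± 0.37, adjusted p = 0.32). Ptpn11, the phosphatase SHP2, had 1.39 under PBS liposomes and -0.26 under IgG (difference 1.66 ± 0.33, adjusted p = 0.46). Trpv2, a cation channel, was at 2.19 and 5.42 FPKM at low flow and 1.44 and 0.926 FPKM at high flow under PBS liposomes and at 8.78 and 6.19 FPKM at low flow and 0 and 0.0564 FPKM at high flow under IgG (interaction adjusted p = 0.32). Emr4, a myeloid adhesion receptor, was at 5.09 and 9.94 FPKM at low flow and 0.971 and 4.45 FPKM at high flow under PBS liposomes, at 7.40 and 10.2 FPKM at low flow under IgG and at 0 in both high-flow IgG libraries (interaction adjusted p = 0.46). For both genes the high-flow IgG libraries were at or near 0, so as ratios the treatments stood further apart at high flow. For Trpv2 the gap in FPKM was wider at low flow. Eml2 had 1.54 under PBS liposomes and -1.51 under IgG (difference 3.06 ± 0.54, adjusted p = 0.37). Mbd2, which binds methylated DNA, had 0.24 under PBS liposomes and 1.94 under IgG (difference -1.70 ± 0.31, adjusted p = 0.39), and Vapb, a tether of the endoplasmic reticulum, 0.61 under PBS liposomes and -1.47 under IgG (difference 2.08 ± 0.41, adjusted p = 0.46). In 4 of these genes the direction of the fold-change differed between the treatments, and the difference passed in none.

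Against untreated mice, 5.05% of 12494 genes passed the interaction, 631 genes, of which 444 had the higher fold-change under PBS liposomes and 187 the lower. With the length offset 0.152% passed, 19 genes. The difference was fitted on the 10 libraries of these groups, so it is not the exact difference of the fold-changes beside it. Without low-flow PBS replicate 1 the count was 37, without high-flow PBS replicate 1 it was 75, and without low-flow PBS replicate 2 it was 259. Among the genes named here, Ccnd1 had log2 fold-changes of 3.22 under PBS liposomes and 1.12 in untreated mice (difference 2.03 ± 0.33, adjusted p = 0.012), and with the length offset the difference was 2.43 ± 0.34 (adjusted p = 0.035). Cyclin D1 was therefore raised in both comparisons and by more under PBS liposomes. Wasf2 had 1.02 under PBS liposomes and -0.73 in untreated mice (difference 1.68 ± 0.30, adjusted p = 0.017), and Ptpn11 1.39 under PBS liposomes and -0.15 in untreated mice (difference 1.47 ± 0.33, adjusted p = 0.031), and both differences also passed with the length offset (adjusted p = 0.035 for each). Wasf2 and Ptpn11 were named for a small p in the interaction with IgG, which uses the same PBS liposome libraries, so their passing here is not independent of that choice. Fbl had 3.02 under PBS liposomes and 0.96 in untreated mice (difference 1.98 ± 0.41, adjusted p = 0.024), Timp1 4.38 under PBS liposomes and 2.16 in untreated mice (difference 2.14 ± 0.45, adjusted p = 0.026) and Tie1 -1.35 under PBS liposomes and 0.15 in untreated mice (difference -1.58 ± 0.38, adjusted p = 0.038), which did not pass with the offset (adjusted p = 0.13, 0.19 and 0.19). The fold-change was lower under PBS liposomes for Csf1r, with 2.71 under PBS liposomes and 5.05 in untreated mice (difference -2.43 ± 0.63, adjusted p = 0.049), and for Itgb2, with 2.68 under PBS liposomes and 5.59 in untreated mice (difference -2.995 ± 0.68, adjusted p = 0.032), and neither difference passed with the offset (adjusted p = 0.17 and 0.097). The untreated pools were read at 100 bp and the PBS liposome libraries at 150 bp in other runs, which cannot be told apart from the treatment in these differences.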

How the data were processed

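The members and gene lists were chosen with earlier results of these data known. RNA of the carotid intima was amplified with a SMARTer low input kit, which does not keep strand, so reads of overlapping antisense genes cannot be told apart. The authors aligned paired reads and estimated expected counts per gene, and the submitters' processing notes name STAR 2.5.1b, RSEM 1.2.15 and mm9. Expected counts were used as deposited, rounded to whole numbers, from 22 of 204 value columns of the table, and 182 were not used. In all 1 entry of 21675 names no gene and was left out. FPKM was computed from each count, the effective length and the library total.

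Counts were tested with edgeR 4.0.16 in R 4.3.3 by the quasi-likelihood test after TMM scaling and filtering by expression, with Benjamini-Hochberg adjustment over all genes tested. A fit of 14 libraries in 7 groups gave the PBS and IgG comparisons, and a fit of 10 libraries gave those with untreated mice, whose pools were read at 100 bp. The alternatives were DESeq2 1.42.0, other scalings and filters, a replicate block, the 4 libraries alone, leaving out each library, and, added after seeing the data, an offset per library from a lowess curve with a span of 0.3 of log2 CPM relative to the gene mean on log2 effective length, which is derived from the same data.

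The genes named were the 12 raised and 12 lowered most with at least 5 FPKM and no overlap, the most abundant and most changed members of each list, genes the study names, and the 8 of smallest p in the interaction with IgG. Where a group held no count, the fold is a bound at a floor of 3 counts over the group. On simulated data for the PBS comparison, 200 genes of 13401 were changed by 2 on the log2 scale. The changed genes were drawn from those with a mean above 5 CPM, so the rates do not cover genes of low count. For the PBS comparison edgeR called 142 of them and 3 others, and for the interaction with IgG 70 and 9 others. With a simulated length slope, edgeR called 3377 others without the offset and 9 with it. That slope was linear in log2 length, a form the offset is built to remove. The trend in the data was not linear, so this does not show how well the offset removes it.

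Replicates correlated at 0.976 at low flow and 0.967 at high flow over log2(CPM + 1), and counts of 1 group differed by more than sampling noise (chi-square per degree of freedom 73.7 and 45.1). The p-values are two-sided. Some genes of the rule and lists are not reported here.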

Additional observations from a re-analysis of the deposited data

Results flagged for a closer look

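The effect of flow differed between PBS liposomes and untreated mice for 631 genes by the interaction term of edgeR, and these libraries also differ in run and read length. Of the genes named above, the difference of the log2 fold-changes was 2.03 for Ccnd1, 2.14 for Timp1, 1.98 for Fbl, 1.68 for Wasf2 and 1.47 for Ptpn11, each higher under PBS liposomes. It was -1.58 for Tie1, -1.77 for Cx3cl1, -2.43 for Csf1r and -2.99 for Itgb2, each lower under PBS liposomes. With the length offset the difference passed for Ccnd1, Wasf2 and Ptpn11 among these 9 genes, of which Wasf2 and Ptpn11 were named for a small p in the interaction with IgG, a test on the same PBS liposome libraries.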

How the results depend on the processing

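The PBS liposome comparison gave between 1482 and 3839 calls with 1 library left out, against 4692 with all, and where that leaves an arm with 1 library, that library is assumed to vary like the other groups. The other settings, the length offset included, gave between 3701 and 6521. DESeq2 gave 5435 calls and scaling by endothelial counts 6484. For the IgG comparison the calls were 2141 to 4231 with 1 library left out and 9216 under endothelial scaling, and for untreated mice 3644 when a fold-change of at least 1 on the log2 scale was required as well. In untreated mice 54.17% of calls rose, against 24.41% when libraries were scaled by their totals alone.

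The interaction with IgG gave 30 calls with DESeq2 and 0 to 22 with 1 library left out. That with untreated mice gave 1122 calls with DESeq2, 1394 under endothelial scaling, 19 with the length offset, and 37 to 789 with 1 library left out. Depth limits the genes of low count, and the cause of these shifts was not tested.

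The labels give replicate numbers without saying what they share. The replicate 1 minus 2 differences of low and high flow correlated at 0.458 under PBS liposomes and 0.014 under IgG. The replicate block gave 5207 calls for PBS liposomes, 5823 for IgG and 0 for their interaction, and 6521 with the 4 libraries alone.

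Among single genes, Ass1 turned to 0.80 on the log2 scale with the 100 bp pool, Itgb1 to 0.13 and Mbnl2 to 0.37 under endothelial scaling, and Ndufa4 to -0.26 with the length offset, with or without the block. Of 215 genes named and tested, 165 were called, 87 of these kept the call whichever of the 4 libraries was left out, 19 lost it with the length offset, 26 under endothelial scaling and 0 with DESeq2 or the block.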
